A study of Mus musculus with 6 samples.

Results

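The genes described here present peptides to T cells: the mouse major histocompatibility complex (MHC) genes, whose symbols start with H2-, and 12 genes of the machinery that loads their products. The rule took every row of the count table whose symbol starts with H2- and the rows of B2m, Tap1, Tap2, Tapbp, Cd74, Ciita, Nlrc5, Psmb8, Psmb9, Psmb10, Erap1 and Ctss. It found 39 of the 18197 gene symbols of the table, 27 of them H2- symbols. They were read in 6 classes: 2 classical class I genes, 14 non-classical class I genes, 9 genes of the class I machinery, 8 class II genes, 3 genes of the class II machinery and 3 other H2- symbols. By chromosome, 32 of the 39 lie on chromosome 17 in the GENCODE M21 annotation of GRCm38.

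RNA-seq had been run on cancer-associated fibroblasts, the matrix-producing stromal cells of a tumour, sorted by FACS from mammary tumours of PyMT mice of the C57BL/6 strain, harvested at 16 to 20 weeks. In 3 libraries the mice were labelled mPGES-1 KO, lacking the microsomal synthase that makes prostaglandin E2 (PGE2), and in the other 3 they were labelled WT; both groups carried the PyMT tumour transgene. The labels give neither its promoter, nor the cells in which mPGES-1 was deleted, nor whether each library of a group is from its own mouse. The series title asks for the CAF expression signature that depends on PGE2, which for these genes means how far presentation transcripts differ between the genotypes.

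Class I molecules sit on almost all nucleated cells: proteasomes cut cytosolic proteins, the TAP transporter carries the peptides into the endoplasmic reticulum, and tapasin helps load them onto a heavy chain paired with beta-2 microglobulin. Class II molecules are made mainly by dendritic cells, macrophages and B cells; the invariant chain holds their groove until lysosomal cathepsins degrade it and H2-DM exchanges the last fragment for a peptide. Interferon induces both sets, class I genes through the coactivator NLRC5 and class II genes through CIITA, and fibroblasts can take up class II expression under interferon gamma.

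Classical class I genes and their light chain are known for promoters that hold a kappaB-like site, an interferon-stimulated response element (ISRE) and a Y box, and class II promoters for an X box ahead of a Y box. The stretches below are shown because they set the 2 abundant classical genes, a Qa gene and B2m beside the 2 non-classical genes whose groups stood furthest apart. They come from RefSeq promoters on GRCm38.p6, available for 30 of the 39 members, and run 5′ to 3′ on the gene's strand. Capitals mark matches, on either strand, to GGGNNTTNC (kappaB-like), TTTCNNTT (ISRE-like) and ATTGG (Y box).
H2-K1 chr17:34000334-34000483 (- strand): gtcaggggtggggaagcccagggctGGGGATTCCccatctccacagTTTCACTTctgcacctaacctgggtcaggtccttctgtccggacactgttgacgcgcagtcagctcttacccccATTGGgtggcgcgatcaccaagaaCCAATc
H2-D1 chr17:35262903-35263052 (+ strand): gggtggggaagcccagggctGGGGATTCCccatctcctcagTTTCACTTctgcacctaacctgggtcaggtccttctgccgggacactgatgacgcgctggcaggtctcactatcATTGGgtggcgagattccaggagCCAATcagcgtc
H2-Q7 chr17:35439001-35439150 (+ strand): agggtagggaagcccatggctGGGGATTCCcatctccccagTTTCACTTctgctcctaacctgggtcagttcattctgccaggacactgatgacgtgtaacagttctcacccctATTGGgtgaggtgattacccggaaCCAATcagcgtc
B2m chr2:122147496-122147645 (+ strand): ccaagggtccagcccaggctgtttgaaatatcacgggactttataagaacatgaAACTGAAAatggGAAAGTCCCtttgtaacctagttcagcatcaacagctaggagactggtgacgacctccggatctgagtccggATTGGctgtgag
H2-M9 chr17:36642709-36642858 (- strand): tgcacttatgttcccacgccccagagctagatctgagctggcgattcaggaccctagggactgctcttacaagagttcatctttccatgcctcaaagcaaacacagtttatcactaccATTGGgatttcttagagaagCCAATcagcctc
H2-Q2 chr17:35342088-35342237 (+ strand): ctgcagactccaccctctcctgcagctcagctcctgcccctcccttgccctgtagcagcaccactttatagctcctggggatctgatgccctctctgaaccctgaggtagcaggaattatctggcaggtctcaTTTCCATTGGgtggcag
H2-K1, H2-D1, H2-Q7 and B2m each held all 3 motifs. The H2-M9 window held only Y boxes, and the ISRE-like match of H2-Q2 overlaps its Y box. Over all 32851 promoter rows, each reaching from 250 bases before to 50 after a start, 15.2% held the kappaB-like letters, 23.9% the ISRE-like letters, 37.4% the Y box and 1.40% all 3. Among members, 9 of 30 held all 3, namely these 4 with H2-Q4, H2-Q6, H2-Aa, H2-Oa and H2-M2.

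The class II stretches are shown to set 3 genes that matched both patterns below beside 1 that matched the Y box letters alone. H2-Eb1, H2-DMb1 and H2-Aa were high in mPGES-1 KO replicate 3 and WT replicate 1. H2-Ob was highest in mPGES-1 KO replicate 3, at 7.17 CPM, but had 0 counts in WT replicate 1. Capitals mark TAGNAAC (X box core) and ATTGG, again on either strand.
H2-Eb1 chr17:34305744-34305843 (+ strand): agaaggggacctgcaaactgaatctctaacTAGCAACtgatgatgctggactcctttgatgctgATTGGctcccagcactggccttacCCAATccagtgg
H2-DMb1 chr17:34153042-34153141 (+ strand): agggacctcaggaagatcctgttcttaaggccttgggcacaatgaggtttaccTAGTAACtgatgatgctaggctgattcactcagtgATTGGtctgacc
H2-Ob chr17:34238760-34238859 (+ strand): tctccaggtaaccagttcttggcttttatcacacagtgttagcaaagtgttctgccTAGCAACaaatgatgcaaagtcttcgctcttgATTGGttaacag
H2-Aa chr17:34287860-34287959 (- strand): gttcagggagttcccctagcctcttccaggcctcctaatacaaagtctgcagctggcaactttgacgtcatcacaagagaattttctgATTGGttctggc
The X box core letters stood ahead of a Y box in H2-Eb1, H2-DMb1 and H2-Ob, and H2-Aa matched only the Y box letters. In H2-Aa, tggcaac ahead of the Y box differs from TAGNAAC by 1 base, a variant that these letters do not mark. X box core letters were in 11.4% of all promoters and the pair was in 4.49%. Of the 7 class II genes with a promoter 3 held the pair, and H2-DMa, H2-DMb2, H2-Oa and H2-Aa had no match to TAGNAAC. Outside class II, H2-Ke6 and H2-M2 held both, so that 5 of the 30 members did. These counts of the pair took the letters in any order. In H2-M2 the X box core letters, at -57, came after the Y box letters, at -84.

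The libraries held 27848682, 23013498 and 37249186 counts in mPGES-1 KO replicates 1 to 3, against 43648450, 37432510 and 37772405 counts in WT replicates 1 to 3. Levels are given in CPM, counts over TMM-scaled library totals. Ptges, which encodes mPGES-1, had 186, 137 and 129 CPM in the libraries labelled mPGES-1 KO, against 31.9, 19.2 and 27.9 CPM in those labelled WT (log2 fold change 2.51 ± 0.31, SE; edgeR quasi-likelihood test, adjusted p = 0.0171). That direction goes against a loss of the whole transcript, and the counts do not separate a deleted part of the gene, so every direction below is that of the labels: "mPGES-1 KO" stands for the libraries labelled so. Fibroblast markers summed to 7574 to 20110 CPM in mPGES-1 KO libraries and 10440 to 29420 CPM in WT libraries. Luminal epithelial markers summed to 38470 to 51970 CPM in mPGES-1 KO libraries against 11850 to 18610 CPM in WT libraries, with 6 of 12 called higher. Pericyte and smooth muscle markers summed to 242 to 517 CPM in mPGES-1 KO libraries against 3467 to 8829 CPM in WT libraries, with 8 of 12 called lower. In such bulk libraries, fewer cells of a type and less RNA per cell cannot be told apart.

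Calls required an adjusted p under 0.05 over all 16543 genes tested, of which 456 (2.76%) passed, 1.20% higher and 1.56% lower. Of the 39 members, 38 had enough counts to be tested and 1 was called: H2-M9, lower in mPGES-1 KO libraries. Over the tested members the median log2 fold change was 0.05, beside -0.04 over all genes. At an unadjusted p under 0.05, 6 of the 38 members passed, beside 19.1% of all genes; 2 were higher, beside 8.56%, and 4 lower, beside 10.5%. The 2 groups did not overlap in 9 members (3 higher, 6 lower), or 23.7%, beside 27.9% of all genes.

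**Figure D1:**
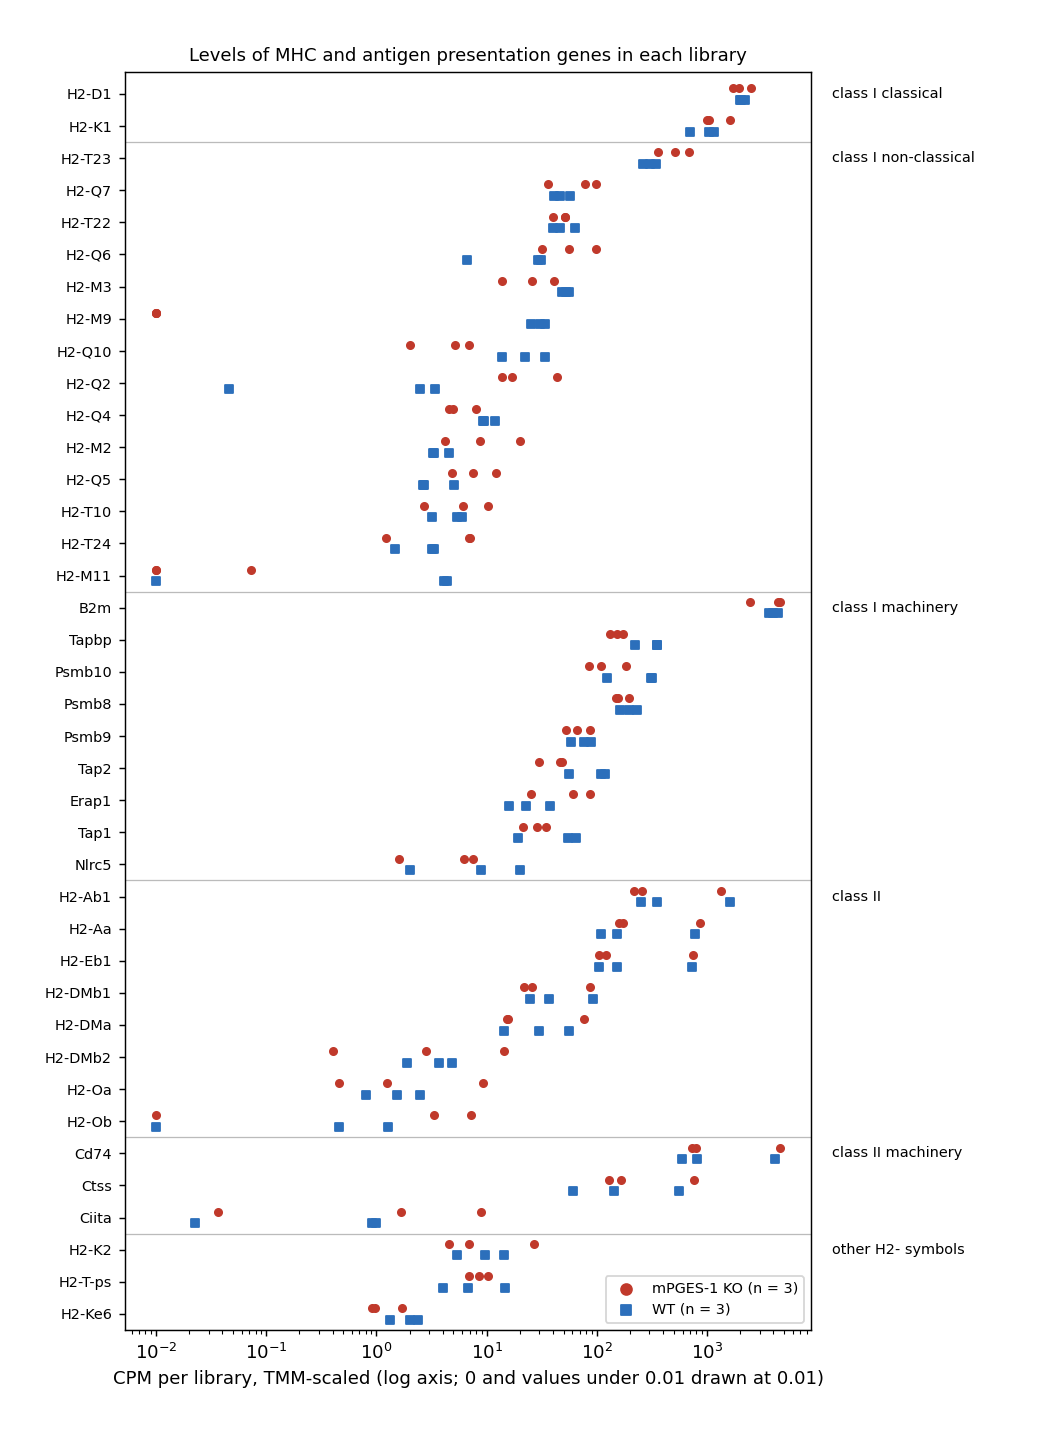
Level of each of the 39 genes in each library, in CPM on a log axis, by class. Circles are mPGES-1 KO libraries and squares WT libraries (n = 3 each). H2-M9 is drawn at the left edge in all 3 mPGES-1 KO libraries because it had 0 counts there, and most class II genes show 1 high library in each genotype.

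The classical class I heavy chains, which present cytosolic peptides to CD8 T cells, were abundant in every library and their groups overlapped. H2-D1 had 2504, 1726 and 1961 CPM in mPGES-1 KO libraries, against 2000, 2230 and 2015 CPM in WT libraries. Its lowest and highest levels were both in mPGES-1 KO libraries, and its log2 fold change was -0.01 ± 0.27 (edgeR quasi-likelihood test, adjusted p = 0.989), with a sign that depended on the scaling. H2-K1 had 1605, 994 and 1040 CPM in mPGES-1 KO libraries, against 695, 1041 and 1144 CPM in WT libraries. Here 1 mPGES-1 KO library stood above and 1 WT library below the other 4, with a log2 fold change of 0.34 ± 0.32 (edgeR, adjusted p = 0.648). B2m, the light chain shared by all class I molecules, had 4582, 2427 and 4382 CPM in mPGES-1 KO libraries, against 3647, 3970 and 4432 CPM in WT libraries, and replicate 2 of mPGES-1 KO was lowest (-0.08 ± 0.33, edgeR, adjusted p = 0.931). Per kilobase of exon, B2m averaged 4415 ± 1384 CPM in mPGES-1 KO and 4670 ± 459 CPM in WT libraries, H2-D1 800.2 ± 155 and 807 ± 49.9 CPM, and H2-K1 413 ± 116 and 327 ± 80.0 CPM in the same order (SD, n = 3 each).

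Reads can be shared among these paralogs. Of all 75-base stretches of the annotated transcripts, the read length, 3.1% of those in H2-K1 and 5.6% of those in H2-D1 also occur in another annotated gene, rising to 21.1% in H2-Q6 and 21.2% in H2-Q5. H2-T10 and H2-T22 share 36.0% and 40.0% of theirs, mostly with each other and with genes on the opposite strand, which unstranded reads do not separate. When the counts of H2-K1, H2-D1 and the H2-Q rows were summed before the fit, the log2 fold change was 0.13 ± 0.29 (edgeR, adjusted p = 0.872).

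H2-M9, on the minus strand of chr17:36639285-36642666, was the called member and was found in WT libraries alone. It had 0 counts in each of the 3 mPGES-1 KO libraries, against 1492, 1004 and 1101 counts in WT libraries, which is 34.0, 25.3 and 30.2 CPM. Set at a floor of 3 counts per library, its level in mPGES-1 KO libraries was at least 279-fold lower (edgeR quasi-likelihood test, adjusted p = 0.0143). In mice H2-M9 belongs to the H2-Mv group, class I-like genes known from sensory neurons of the vomeronasal organ. The labels give C57BL/6 for both groups, and the strain in which the mPGES-1 KO allele was made, or the haplotype around the MHC in these mice, is not given in the sources used here. None of its 75-base stretches (0%) occurs in another annotated gene and no annotated gene overlaps its exons. The call did not hold without mPGES-1 KO replicate 2 (edgeR, adjusted p = 0.0881), without mPGES-1 KO replicate 3 (0.0630) or without WT replicate 2 (0.0573), settings under which 0, 0 and 1 of all genes were called; over all 16 alternatives the adjusted p ran from 1.41e-17 to 0.0884.

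H2-M11, another H2-Mv gene, was the member with too few counts to be tested. It had 2, 0 and 0 counts in mPGES-1 KO libraries, against 0, 175 and 149 counts in WT libraries. It was thus seen above the floor of 3 counts in WT replicates 2 and 3 alone, and the groups overlapped because WT replicate 1 also had 0. H2-M3, which in mice presents N-formylated bacterial peptides, had 41.1, 13.9 and 25.8 CPM in mPGES-1 KO libraries, against 48.8, 52.2 and 55.7 CPM in WT libraries. All 3 mPGES-1 KO libraries lay below the WT libraries, without passing the test (log2 fold change -0.96 ± 0.42, edgeR, adjusted p = 0.274). H2-M2 had 8.74, 4.15 and 20.0 CPM in mPGES-1 KO libraries, against 4.55, 3.30 and 3.24 CPM in WT libraries. Its groups overlapped through 1 WT library (1.57 ± 0.80, edgeR, adjusted p = 0.351). Summed, the 4 H2-M genes reached 49.9, 18.1 and 45.8 CPM in mPGES-1 KO libraries, against 87.3, 85.2 and 93.2 CPM in WT libraries, so that every mPGES-1 KO library was below every WT library. H2-M9 and H2-M3, each apart by itself, made up most of the WT sums, while H2-M2 went the other way.

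Among the H2-Q (Qa) genes no member was called, and those whose groups stood apart went in both directions. H2-Q2 had 13.7, 16.9 and 43.4 CPM in mPGES-1 KO libraries, against 0.0455, 3.37 and 2.498 CPM in WT libraries. The groups did not overlap and WT replicate 1 was close to 0 (log2 fold change 3.64 ± 1.26, edgeR, adjusted p = 0.167). H2-Q10, known in mice for a secreted class I protein made by liver, had 5.16, 2.01 and 6.85 CPM in mPGES-1 KO libraries, against 22.2, 13.7 and 33.7 CPM in WT libraries. Here every mPGES-1 KO library was below every WT library (-2.31 ± 0.65, edgeR, adjusted p = 0.107). DESeq2 called H2-Q2 and H2-Q10 (adjusted p = 0.00649 and 0.00731), in a test that called 12.7% of all genes. H2-Q4 had 7.97, 4.95 and 4.59 CPM in mPGES-1 KO libraries, against 11.8, 9.46 and 9.31 CPM in WT libraries. It too stood apart, lower in mPGES-1 KO libraries (-0.80 ± 0.64, edgeR, adjusted p = 0.565), but 20.7% of its stretches are shared, most of them with an antisense transcript.

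H2-Q6 and H2-Q7 encode Qa-2 or its near copies. H2-Q6 had 97.99, 31.8 and 56.0 CPM in mPGES-1 KO libraries, against 6.58, 31.4 and 29.3 CPM in WT libraries. The groups touched without overlapping, at 31.8 CPM in an mPGES-1 KO library and 31.4 CPM in a WT library (1.47 ± 0.65, edgeR, adjusted p = 0.273). H2-Q7 had 97.7, 36.3 and 77.5 CPM in mPGES-1 KO libraries, against 40.4, 57.3 and 46.1 CPM in WT libraries. Its groups overlapped, with replicate 2 of mPGES-1 KO lowest of all (0.56 ± 0.40, edgeR, adjusted p = 0.521). H2-Q5, a gene annotated as a polymorphic pseudogene, had 12.2, 4.82 and 7.45 CPM in mPGES-1 KO libraries, against 2.62, 5.11 and 2.72 CPM in WT libraries, and the groups overlapped (1.23 ± 0.81, edgeR, adjusted p = 0.480).

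H2-T23 encodes Qa-1, the mouse class I molecule that shows signal peptides of other class I chains to the NKG2A receptor of NK and T cells, and it was the most abundant of the non-classical genes per kilobase. Its level was 679, 355 and 507 CPM in mPGES-1 KO libraries, against 306, 265 and 348 CPM in WT libraries. The groups did not overlap, the lowest mPGES-1 KO library at 355.1 CPM and the highest WT library at 347.6 CPM, and the difference did not pass (0.75 ± 0.30, edgeR, adjusted p = 0.236). H2-T22, a ligand of some gamma delta T cells in mice, had 51.8, 39.9 and 50.9 CPM in mPGES-1 KO libraries, against 40.1, 46.0 and 63.6 CPM in WT libraries, and WT replicate 3 was highest. H2-T10, its near copy, had 6.15, 2.68 and 10.39 CPM in mPGES-1 KO libraries, against 5.35, 3.22 and 6.01 CPM in WT libraries. H2-T24 had 7.10, 6.87 and 1.22 CPM in mPGES-1 KO libraries, against 3.21, 1.48 and 3.35 CPM in WT libraries. All 3 of these genes had overlapping groups, with adjusted p between 0.710 and 0.938 in edgeR, and the summed H2-T rows gave 0.66 ± 0.30 (adjusted p = 0.290).

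Over the non-classical class I genes, 13 of 14 were tested, 0 were called higher and 1 lower, and the median log2 fold change was 0.56, also with H2-M9 set at its bound. It was 0.18 without mPGES-1 KO replicate 3 and -0.95 with paralogs summed, where the H2-Q and H2-T rows leave the class. Groups did not overlap in 3 genes higher in mPGES-1 KO (H2-Q2, H2-Q6, H2-T23), beside 12.2% of all genes, and in 4 lower (H2-M9, H2-M3, H2-Q10, H2-Q4), beside 15.7% of all genes. H2-Q genes thus stood on both sides, as the plot of fold changes by class shows.

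**Figure D2:**
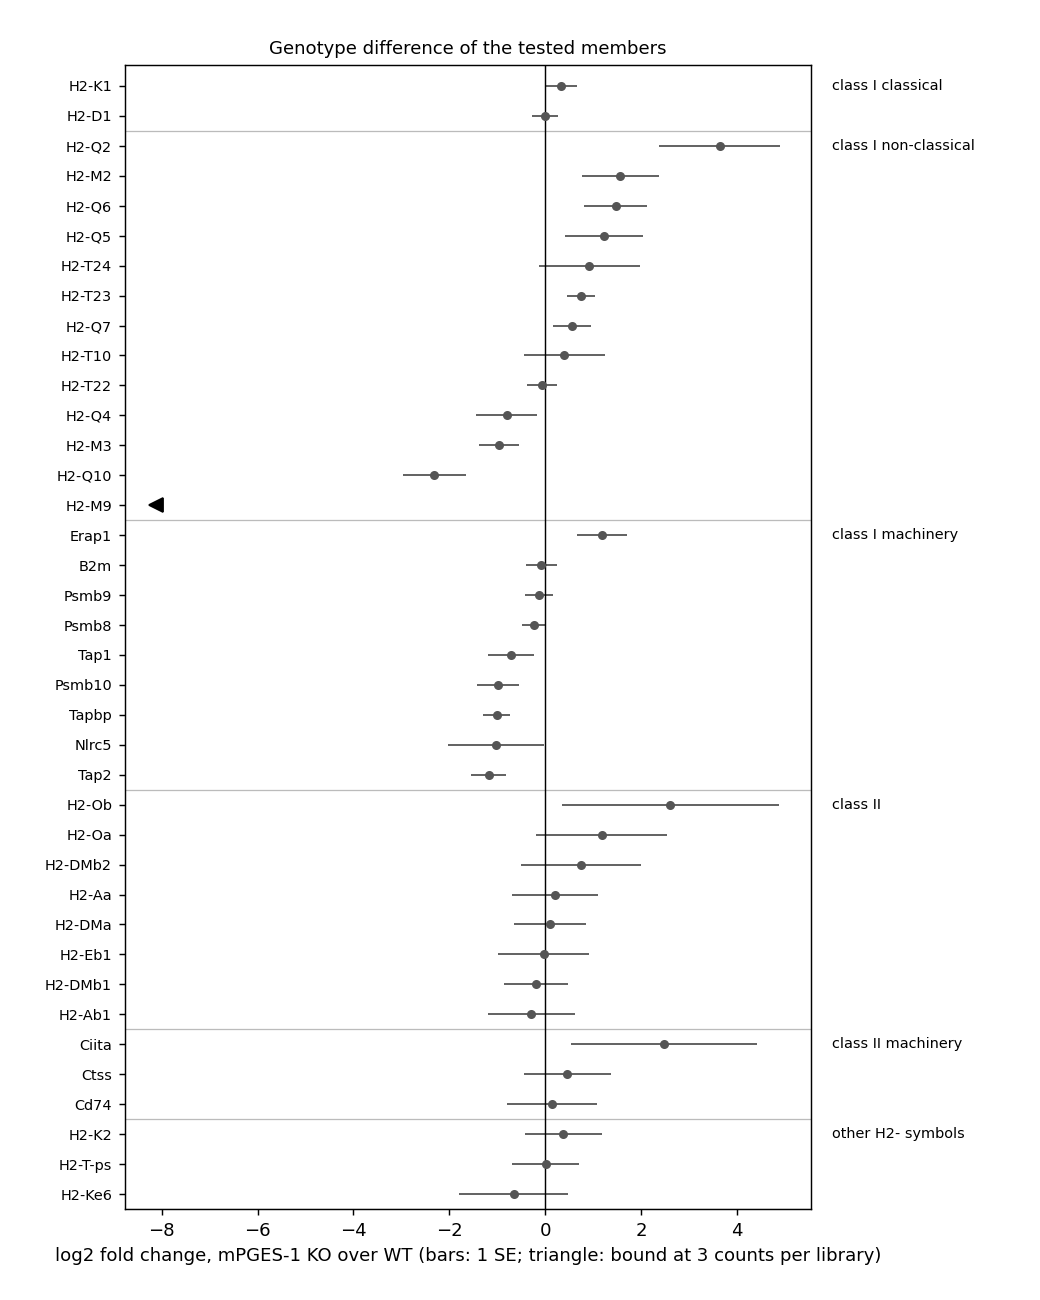
Log2 fold change, mPGES-1 KO over WT, of the 38 tested members, with bars of 1 SE. H2-M9 is drawn as a triangle at -8.12, its bound when each mPGES-1 KO library is set at 3 counts. The 9 class I machinery genes lie between -1.18 (Tap2) and 1.18 (Erap1), and the error bars of the class II genes reach up to 2.26 log2 units on each side.

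Of the 9 genes of the class I machinery, 8 had a negative log2 fold change, beside 8543 of the 16543 genes tested. None was called (0, beside 2.76% of all genes), and their median was -0.71 beside -0.04 over all genes. Among the 8, B2m (-0.08) and Psmb9 (-0.13) changed sign in 1 and 2 of 16 alternatives. The peptide loading complex held the members nearest to the threshold. Tapbp encodes tapasin, which bridges TAP and the empty class I chain, and it had 152, 132 and 174 CPM in mPGES-1 KO libraries, against 221, 351 and 348 CPM in WT libraries. No mPGES-1 KO library reached the lowest WT library (log2 fold change -1.01 ± 0.28, edgeR, adjusted p = 0.102). Tap2, a subunit of the peptide transporter, had 48.6, 29.6 and 46.6 CPM in mPGES-1 KO libraries, against 55.5, 118.7 and 108.0 CPM in WT libraries. The groups again did not overlap, though WT replicate 1 was close to the mPGES-1 KO libraries (-1.18 ± 0.37, edgeR, adjusted p = 0.139). Tap1, the other subunit, had 34.4, 21.3 and 28.7 CPM in mPGES-1 KO libraries, against 19.2, 54.7 and 64.4 CPM in WT libraries. In Tap1 the WT libraries spanned the mPGES-1 KO libraries, replicate 1 being the lowest of all 6 (-0.71 ± 0.48, edgeR, adjusted p = 0.494). Exons of Tapbp and Tap2 overlap transcripts of the opposite strand, and 18.6% and 8.3% of their 75-base stretches are shared.

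DESeq2 and limma-voom called Tapbp (adjusted p = 0.0279 and 0.0162), and limma-voom called Tap2 (0.0273) and Psmb10 (0.0372); these tools called 12.7% and 11.8% of all genes. In WT replicate 1 the levels of Tapbp, Tap1, Tap2, Nlrc5 and the 3 immunoproteasome genes were the lowest of the WT libraries, and the median of the machinery genes was -1.05 without that library and -0.10 without WT replicate 3.

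Erap1 encodes the aminopeptidase that trims class I peptides in the endoplasmic reticulum, and it was the machinery gene with a positive difference. It had 85.9, 61.3 and 25.2 CPM in mPGES-1 KO libraries, against 37.4, 22.9 and 15.8 CPM in WT libraries, and the groups overlapped through mPGES-1 KO replicate 3 (1.18 ± 0.52, edgeR, adjusted p = 0.275). Nlrc5, the class I transactivator, had 6.22, 7.50 and 1.59 CPM in mPGES-1 KO libraries, against 2.00, 8.88 and 20.1 CPM in WT libraries. Its level varied 12.7-fold over the 6 libraries with overlapping groups (-1.02 ± 1.00, edgeR, adjusted p = 0.658).

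The immunoproteasome subunits replace 3 catalytic subunits of the standard proteasome and change which peptides are cut. Psmb8 had 157, 149.7 and 196 CPM in mPGES-1 KO libraries, against 162, 195 and 231 CPM in WT libraries. Psmb9 had 65.6, 52.4 and 85.9 CPM in mPGES-1 KO libraries, against 58.7, 76.3 and 88.6 CPM in WT libraries. Both genes had overlapping groups, with log2 fold changes of -0.23 ± 0.25 and -0.13 ± 0.30 (edgeR, adjusted p = 0.706 and 0.874). Psmb10 had 109.7, 85.6 and 184 CPM in mPGES-1 KO libraries, against 125, 307 and 315 CPM in WT libraries, where replicate 1 again lay among the mPGES-1 KO values (-0.98 ± 0.44, edgeR, adjusted p = 0.280).

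Set against the standard subunit it replaces within each library, which needs no scaling, the subunits differed. Psmb8 over Psmb5 gave count ratios of 2.59, 2.01 and 1.99 in mPGES-1 KO libraries, against 1.40, 1.11 and 1.27 in WT libraries. The groups did not overlap, and the mean log2 ratio was higher by 0.80 (exact two-sided permutation test, p = 0.1, the smallest that 3 against 3 allows; adjusted over 3 ratios, 0.3). Psmb5 itself had 60.6, 74.6 and 98.6 CPM in mPGES-1 KO libraries, against 116, 176 and 183 CPM in WT libraries (-1.02 ± 0.30, edgeR, adjusted p = 0.118), so that the ratio moved with its denominator. Psmb9 over Psmb6 gave ratios of 0.162, 0.1096 and 0.122 in mPGES-1 KO libraries, against 0.115, 0.111 and 0.143 in WT libraries (difference 0.08, exact permutation p = 0.7). Psmb10 over Psmb7 gave ratios of 1.18, 0.931 and 1.52 in mPGES-1 KO libraries, against 1.09, 4.33 and 4.92 in WT libraries. Here the WT libraries split, replicate 1 lying within the mPGES-1 KO range (difference -1.27, exact permutation p = 0.3).

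**Figure D3:**
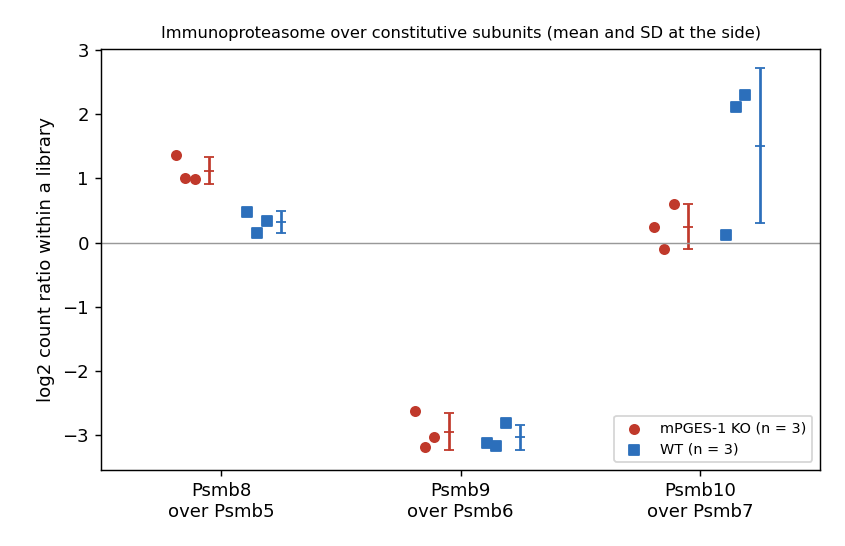
Log2 ratio of the counts of each immunoproteasome subunit to those of the standard subunit it replaces, per library, with the mean and SD at the side (n = 3 each). Psmb8 over Psmb5 separates the genotypes (1.12 ± 0.22 in mPGES-1 KO and 0.32 ± 0.17 in WT), and Psmb10 over Psmb7 splits the WT libraries.

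The class II genes varied more between libraries of 1 genotype than between genotypes. Of the 8, 0 were called in edgeR, 0 in DESeq2 and 0 in limma-voom, beside 2.76%, 12.7% and 11.8% of all genes. At an unadjusted p under 0.05 in edgeR 0 passed, beside 19.1% of all genes. H2-Ab1, the beta chain of I-A, had 257, 215 and 1351 CPM in mPGES-1 KO libraries, against 1629, 352 and 249 CPM in WT libraries. H2-Aa, its alpha chain, had 160.0, 174 and 865 CPM in mPGES-1 KO libraries, against 778, 151 and 109 CPM in WT libraries. H2-Eb1, a beta chain of the second class II isotype, had 105, 121 and 743 CPM in mPGES-1 KO libraries, against 728, 153 and 105 CPM in WT libraries. In each of these genes mPGES-1 KO replicate 3 and WT replicate 1 stood 5 to 7 times above the other 2 libraries of their genotype on average, and the groups overlapped. The log2 fold changes were -0.29 ± 0.91 for H2-Ab1, 0.21 ± 0.90 for H2-Aa and -0.03 ± 0.95 for H2-Eb1 (edgeR, adjusted p = 0.910, 0.935 and 0.994).

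The H2-DM chains, which exchange peptides on class II molecules, followed the same libraries. H2-DMa had 15.3, 15.5 and 76.1 CPM in mPGES-1 KO libraries, against 55.4, 30.1 and 14.3 CPM in WT libraries. H2-DMb1 had 25.8, 22.04 and 86.3 CPM in mPGES-1 KO libraries, against 92.3, 36.6 and 24.7 CPM in WT libraries. H2-DMb2, its neighbour and near copy, had 0.402, 2.81 and 14.4 CPM in mPGES-1 KO libraries, against 3.71, 1.89 and 4.86 CPM in WT libraries. WT replicate 1 was thus high for H2-DMa and H2-DMb1 and unremarkable for H2-DMb2, a pair in which about 15% of stretches are shared (15.8% of H2-DMb1 and 14.6% of H2-DMb2). All 3 had overlapping groups, with adjusted p between 0.819 and 0.965 in edgeR.

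H2-DO restrains H2-DM and is known mainly from B cells. Its alpha gene H2-Oa had 1.24, 0.461 and 9.20 CPM in mPGES-1 KO libraries, against 2.48, 1.53 and 0.796 CPM in WT libraries. Its beta gene H2-Ob had 0, 3.31 and 7.17 CPM in mPGES-1 KO libraries, against 0, 0.453 and 1.26 CPM in WT libraries. H2-Ob therefore had no count in WT replicate 1, the library highest in H2-Ab1, and neither gene passed (edgeR, adjusted p = 0.717 and 0.604).

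Cd74 encodes the invariant chain and had 731, 797 and 4588 CPM in mPGES-1 KO libraries, against 4102, 809 and 593 CPM in WT libraries. Ctss, the lysosomal protease cathepsin S that degrades the invariant chain, had 165.5, 128 and 758 CPM in mPGES-1 KO libraries, against 559, 143 and 61.3 CPM in WT libraries. Both again stood highest in mPGES-1 KO replicate 3 and WT replicate 1 (0.15 ± 0.94 and 0.46 ± 0.91, edgeR, adjusted p = 0.957 and 0.849). Ciita, the coactivator on which class II promoters depend, had 0.0366, 1.68 and 8.95 CPM in mPGES-1 KO libraries, against 0.0228, 0.981 and 0.906 CPM in WT libraries. It was highest in mPGES-1 KO replicate 3 but had 1 count in WT replicate 1, whose class II genes were as high (2.48 ± 1.94, edgeR, adjusted p = 0.562).

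Summed, the 11 class II and class II machinery genes reached 1462, 1481 and 8507 CPM in mPGES-1 KO libraries, against 7949, 1679 and 1164 CPM in WT libraries. The libraries with the 2 highest levels were mPGES-1 KO replicate 3 and WT replicate 1 in 6 of 8 class II genes, in 2 of 3 class II machinery genes, in 1 of the 3 other H2- symbols (H2-T-ps) and in 0 of 25 class I genes and machinery, beside 6.32% of all tested genes; this pair was picked after its values were seen. Without mPGES-1 KO replicate 3 the class II median was -1.10, without WT replicate 1 it was 1.17 and without both it was -0.32, so the direction rested on which of the 2 was kept. In the full fit it was 0.15.

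Some markers of myeloid cells were high in the same libraries. Macrophage and dendritic cell markers, 16 with counts, summed to 1134, 491 and 2395 CPM in mPGES-1 KO libraries, against 1556, 569 and 438 CPM in WT libraries. The C1q genes of macrophages summed to 380, 225 and 1349 CPM in mPGES-1 KO libraries, against 926, 319 and 213 CPM in WT libraries. Adgre1, Csf1r and Cd68 had counts in all 6 libraries; at 0 were Mrc1, Flt3 and Cd209a in WT replicate 3, Flt3 in mPGES-1 KO replicate 2, Cd209a in mPGES-1 KO replicate 1, and Ccr7 in mPGES-1 KO replicate 3 and WT replicate 1. Lyz2, also on the macrophage list, was higher in mPGES-1 KO replicate 1 (589 CPM) than in WT replicate 1 (388 CPM). By both sums, which share the C1q genes, the 2 libraries high in class II were the highest. By gene, 6 of the 16 markers (Csf1r, Cd68, Fcgr1 and the C1q genes) had their 2 highest levels there and 10 did not: Adgre1 was highest in mPGES-1 KO replicate 1 at 23.2 CPM and Batf3 in WT replicate 3 at 30.9 CPM, and Mrc1 was at 0.137 CPM in WT replicate 1. Leukocyte markers were highest there in sum too, at 729 CPM in mPGES-1 KO replicate 3 and 475 CPM in WT replicate 1. The other 4 libraries had 170 to 287 CPM. Of the 8 markers, 4 (Cd52, Laptm5, Coro1a and Cd53) had their 2 highest levels in mPGES-1 KO replicate 3 and WT replicate 1, and 4 did not. Ptprc had 8.15 CPM in WT replicate 1, below the 21.5 and 15.9 CPM of mPGES-1 KO replicates 1 and 2. B cell markers summed to between 0.0732 and 44.1 CPM in mPGES-1 KO libraries and between 6.52 and 49.9 CPM in WT libraries, highest in WT replicate 3. T and NK cell markers reached 366 CPM in mPGES-1 KO replicate 3 and 29.1 to 66.2 CPM in the other 5. Classical class I genes summed to 4109, 2720 and 3001 CPM in mPGES-1 KO libraries, against 2695, 3271 and 3159 CPM in WT libraries, and did not follow those lists. The part of leukocyte RNA in the class II levels was not tested.

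**Figure D4:**
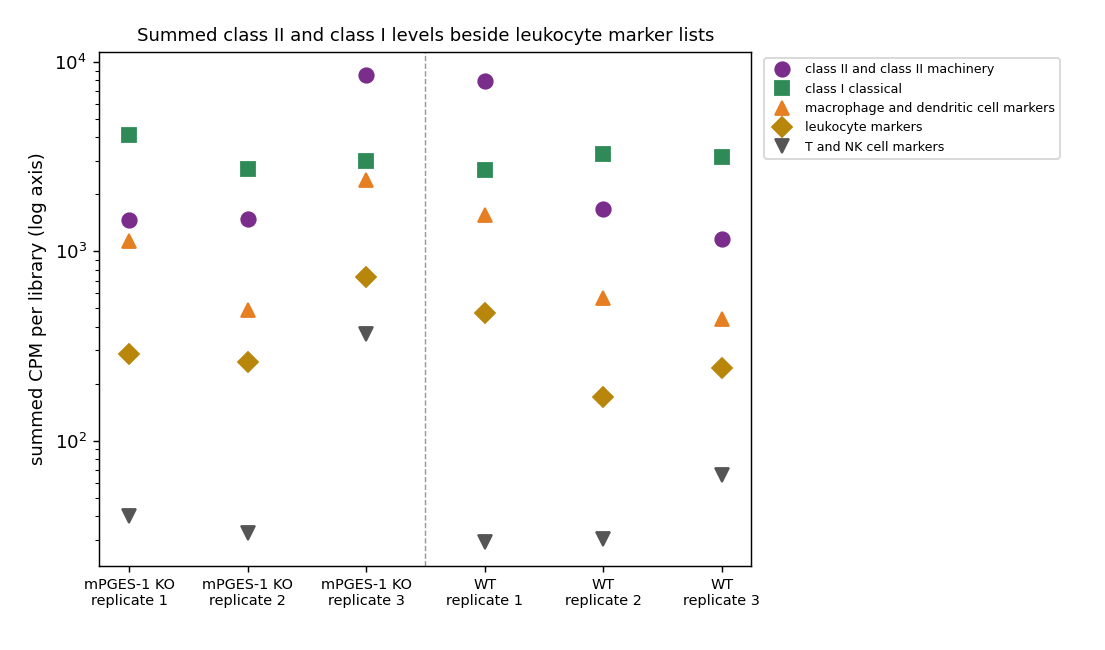
Summed CPM per library, on a log axis, of the class II genes with their machinery, of the 2 classical class I genes and of 3 leukocyte marker lists. The class II sum is 8507 CPM in mPGES-1 KO replicate 3 and 7949 CPM in WT replicate 1 and at most 1679 CPM elsewhere, and the sum of the macrophage list is highest in the same libraries.

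The other 3 H2- symbols stand outside the presentation pathway or are not intact genes. H2-K2 and H2-T-ps are annotated as pseudogenes, and H2-Ke6 encodes a hydroxysteroid dehydrogenase named for its place in the complex. H2-K2 ranged from 4.57 to 26.8 CPM in mPGES-1 KO libraries and 5.44 to 14.3 CPM in WT libraries, H2-T-ps from 6.88 to 10.25 CPM and 4.05 to 14.7 CPM, and H2-Ke6 from 0.914 to 1.72 CPM and 1.32 to 2.36 CPM in the same order. None was called and all had overlapping groups; 65.5% of the H2-Ke6 stretches lie in another gene.

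Along chromosome 17, 130 tested genes lie from the first to the last H2- member, 30 of them members. Of the other 100, 2 were called higher and 2 lower, beside 1.20% and 1.56% of all genes. The median of the 100 was -0.18, beside -0.04 over all genes. Tnf, the inflammatory cytokine gene of the class III region, had 701, 276 and 215 CPM in mPGES-1 KO libraries, against 53.0, 29.6 and 21.9 CPM in WT libraries (3.51 log2, edgeR, adjusted p = 0.0281). Ier3, an immediate early gene, was the other one higher (2.65, adjusted p = 0.0177), and Rxrb, a nuclear receptor gene near H2-Ke6, and Ppp1r18 were lower (-2.49 and -1.86, adjusted p = 0.0211 and 0.0376). The tested neighbours of H2-M9 on either side, Trim39 and Trim26, were not called (-0.10 and -0.82, adjusted p = 0.949 and 0.385) and their groups overlapped. H2-M11, which was not tested, lies between Trim39 and H2-M9, at chr17:36547075-36549250. It had 2, 0 and 0 counts in mPGES-1 KO libraries, against 0, 175 and 149 counts in WT libraries.

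**Figure D5:**
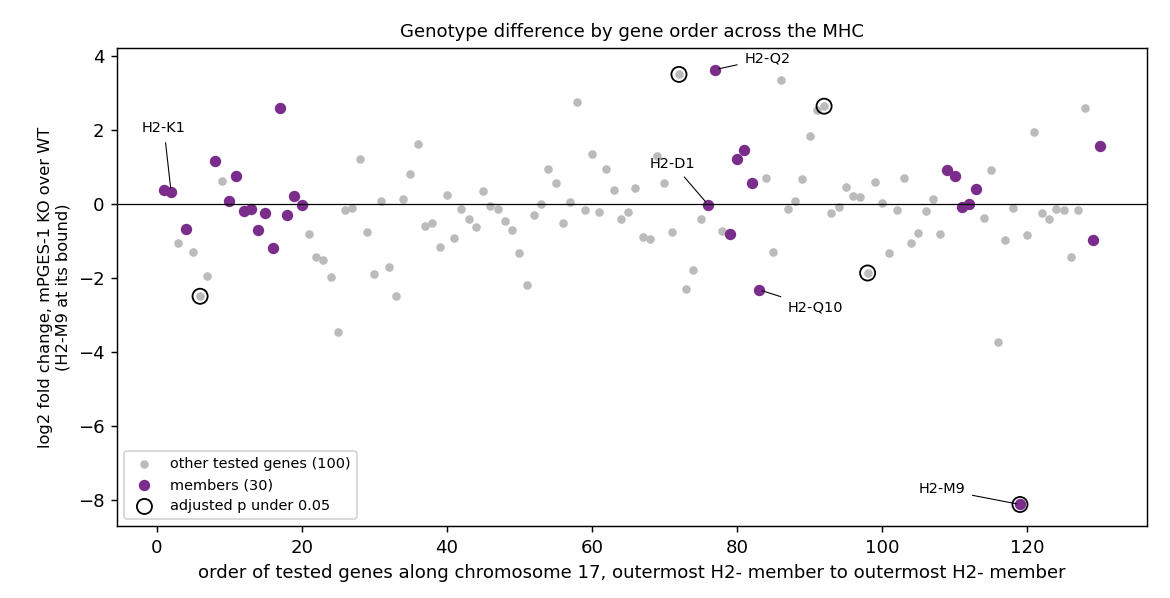
Log2 fold change, mPGES-1 KO over WT, by order of the 130 tested genes between the outermost H2- genes of chromosome 17. Purple points are the 30 members there, grey points the other 100 genes, and rings mark an adjusted p under 0.05. H2-M9, drawn at its bound of -8.12, stands below all others, and the other called genes lie on both sides of 0.

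Of 91 other genes of the pathway on 5 lists, 77 were tested and 3 were called, beside 2.76% of all genes. Of the 3, 1 was higher and 2 were lower. The median of the 77 was 0.17, beside -0.04 over all genes. Fcgrt encodes the heavy chain of FcRn, a class I-like receptor that pairs with beta-2 microglobulin and recycles IgG and albumin. It fell to 211, 83.6 and 110.0 CPM in mPGES-1 KO libraries, against 470, 642 and 694 CPM in WT libraries (-2.16 ± 0.40, edgeR, adjusted p = 0.0372). It was the 1 called gene of 9 tested class I-like genes outside the H2- symbols; Cd1d1, which presents lipids to NKT cells, had 32.1, 60.9 and 47.9 CPM in mPGES-1 KO libraries, against 19.5, 26.3 and 22.4 CPM in WT libraries, apart but not called (1.04 ± 0.36, edgeR, adjusted p = 0.163).

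Among 25 regulators of MHC genes, 1 was called in each direction, beside 1.20% of all genes higher and 1.56% lower. Irf8, an interferon regulatory factor best known from myeloid cells, had 6.25, 6.33 and 6.00 CPM in mPGES-1 KO libraries, against 74.9, 77.6 and 23.8 CPM in WT libraries (-3.24 ± 0.51, edgeR, adjusted p = 0.0280). Its mPGES-1 KO values were nearly equal, including replicate 3, where macrophage markers were highest. Nfkb1, whose product p50 binds kappaB sites, had 323, 151 and 152 CPM in mPGES-1 KO libraries, against 24.9, 42.1 and 61.6 CPM in WT libraries (2.28 ± 0.46, edgeR, adjusted p = 0.0462). All mPGES-1 KO libraries were higher. Rfx5, a subunit of the RFX complex on the X box, had 17.7, 15.6 and 14.98 CPM in mPGES-1 KO libraries, against 4.83, 5.41 and 3.54 CPM in WT libraries, and stood apart without being called (1.81 ± 0.55, edgeR, adjusted p = 0.126). The other RFX subunits, Rfxap and Rfxank, overlapped between groups. The calls of Fcgrt, Irf8 and Nfkb1 held in 9, 8 and 7 of 15 alternatives and were lost for all 3 without mPGES-1 KO replicate 2, without mPGES-1 KO replicate 3 and without WT replicate 2.

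Among 18 genes of class I loading and peptide supply 0 were called by edgeR, 4 by DESeq2 and 6 by limma-voom. Over all genes these tools called 2.76%, 12.7% and 11.8%. At an unadjusted p under 0.05 in edgeR 6 of the 18 passed, beside 19.1% of all genes. Tpp2, Pdia3, Psmb5, given above, and Calr had the smallest adjusted p. Pdia3, the ERp57 disulphide isomerase of the loading complex, had 1817, 1176 and 1090 CPM in mPGES-1 KO libraries, against 794, 397 and 556 CPM in WT libraries. Calr, the chaperone calreticulin, had 936, 624 and 573 CPM in mPGES-1 KO libraries, against 478, 216 and 328 CPM in WT libraries. Tpp2, a cytosolic peptidase, had 153, 95.6 and 79.1 CPM in mPGES-1 KO libraries, against 54.4, 46.0 and 27.7 CPM in WT libraries. In these 3 genes every mPGES-1 KO library was above every WT library while Tapbp, in the same complex as Pdia3 and Calr, was below; none passed (edgeR, adjusted p = 0.116, 0.166 and 0.103).

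Of 14 tested genes of class II processing 0 were called by edgeR, 4 by DESeq2 and 5 by limma-voom, beside 2.76%, 12.7% and 11.8% of all genes. At an unadjusted p under 0.05 in edgeR 4 of the 14 passed, beside 19.1% of all genes. Cst3, the cathepsin inhibitor cystatin C, had 568, 399.6 and 916 CPM in mPGES-1 KO libraries, against 2171, 2134 and 1710 CPM in WT libraries. Cd63, a tetraspanin of late endosomes, had 1067, 741 and 1189 CPM in mPGES-1 KO libraries, against 1784, 2196 and 3136 CPM in WT libraries. Sppl2a, the protease that cleaves the last membrane fragment of the invariant chain, had 129, 124 and 95.1 CPM in mPGES-1 KO libraries, against 57.2, 29.0 and 41.9 CPM in WT libraries. All 3 stood apart, Cst3 and Cd63 lower and Sppl2a higher in mPGES-1 KO libraries, without passing (edgeR, adjusted p = 0.0575, 0.0950 and 0.0637). Of 11 tested co-stimulatory and checkpoint ligands 0 were called, beside 2.76% of all genes. Groups stood apart in 2 of the 11, both higher in mPGES-1 KO libraries, beside 12.2% of all genes. These were Pvr, a ligand of TIGIT and CD226, and Icam1, an adhesion ligand of T cells (0.85 ± 0.30 and 1.55 ± 0.63, edgeR, adjusted p = 0.179 and 0.233).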

How the data were processed

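Per the labels' protocols, cDNA from sorted cells was made with SMART-Seq v4, amplified by 16 PCR cycles, sheared, and sequenced as single reads of 75 cycles. The kits mark neither strand nor molecule, so floors cover counting error only. The authors deposited raw, unnormalized read counts for each gene symbol. FastQC 0.11.5, STAR and mm10 are named in the submitters' processing notes; how reads were counted, and on which annotation, is not given in the sources used here. Libraries held 23013498 to 43648450 counts, and a floor of 3 counts stood for 0.0683 to 0.1257 CPM.

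The test was edgeR 4.0.16 in R 4.3.3 (filterByExpr, TMM, robust quasi-likelihood, 6 libraries, no covariate, two-sided), with Benjamini-Hochberg adjustment over 16543 genes. The common biological coefficient of variation was 0.818. The SE of a log2 fold change is its size over the square root of F. Since the labels do not say that libraries come from separate animals, p-values describe library-to-library spread alone, possibly technical. The 3 ratios were compared by exact permutation over libraries.

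GENCODE M21 (GRCm38, the same assembly as mm10) gave positions, exon lengths and shared 75-base stretches, and RefSeq the promoters. The members and lists were chosen with earlier results of these data known. All members were named; from each list of other genes, called ones and those with the smallest adjusted p, up to 4, could be. H2-M11 was left untested for its low counts. Alternatives were 2 other scalings, 2 other filters, DESeq2 1.42.0, limma-voom (limma 3.58.1) with quality weights, a block for replicate number, leaving out each library, a threshold of 0.1, summing paralogs, and, added after seeing the data, mPGES-1 KO replicate 3 and WT replicate 1 left out together.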

Additional observations from a re-analysis of the deposited data

How the results depend on the processing

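Leaving out 1 library gave 0 to 568 called genes instead of 456, 0 or 1 called member instead of 1, and 0 to 4 other pathway genes instead of 3, and leaving out mPGES-1 KO replicate 3 with WT replicate 1 gave 0, 0 and 0. The replicate block gave 0 called genes, 0 members and 0 pathway genes. Same-numbered libraries did not deviate together (correlations -0.063, 0.028 and -0.017). By these values no pairing by number was seen, but a pairing weaker than the spread between libraries could be missed. The labels do not say whether the numbers pair libraries. DESeq2 called 2108 genes, 4 members (H2-M9, H2-Q2, H2-Q10, Tapbp) and 13 pathway genes, limma-voom 1944, 4 (H2-M9, Tapbp, Tap2, Psmb10) and 14, and an adjusted p under 0.1 gave 1113, 1 and 6; a filter of 1 CPM in 3 libraries gave 5 pathway genes. With paralogs summed the non-classical median was -0.95, since the summed rows leave the class. With 1 library left out the machinery median ran from -1.05 to -0.10 and the class II median from -1.10 to 1.17. Ptges lost its call under the replicate block (2.53, adjusted p = 0.0803), without both libraries (2.82, 0.0641) and without mPGES-1 KO replicate 2, mPGES-1 KO replicate 3 or WT replicate 2 (log2 fold changes with 1 library left out, 2.34 to 2.71). H2-M9 had an adjusted p of 0.0884 under the replicate block and 0.0641 without both libraries.

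Over 596 settings of single members 529 kept direction and side of the threshold, 56 changed sign, 5 lost the call (all H2-M9) and 6 gained one; those that changed sign were never called. H2-D1 was 0.04 with DESeq2 size factors and with DESeq2, and 0.03 with no filter, with 1 CPM and without both libraries. H2-Eb1 was 0.01, 0.01, 0.01, 0.02 and 0.19 with DESeq2 size factors, DESeq2, no filter, 1 CPM and limma-voom. With limma-voom, the replicate block and both libraries out, H2-DMa was -0.11, -0.27 and -0.50, H2-DMb2 -0.02, -0.15 and -1.01 and H2-Oa -0.03, -0.02 and -0.42. Both libraries out also gave -0.02 for H2-T10 and -0.10 for Ciita, limma-voom gave -0.35 for H2-K2, and library totals alone -0.02 for H2-T-ps. With 1 library left out, values ran from -0.17 to 0.13 (H2-D1), -0.14 to 0.80 (H2-T10), -0.17 to 0.14 (H2-T22), -0.23 to 0.19 (B2m), -0.33 to 0.05 (Psmb9), -1.05 to 1.62 (H2-Aa), -1.65 to 1.02 (H2-Ab1), -1.11 to 0.68 (H2-DMa), -1.10 to 0.55 (H2-DMb1), -1.12 to 1.31 (H2-DMb2), -1.54 to 1.33 (H2-Eb1), -0.91 to 1.72 (H2-Oa), -1.26 to 1.54 (Cd74), -0.79 to 1.78 (Ctss), -0.77 to 0.82 (H2-K2), -0.27 to 0.68 (H2-T-ps) and -0.08 to 0.20 (Psmb9 over Psmb6). Apart from the summed paralogs, the cause of these changes was not tested.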
